A study of Rattus norvegicus with 32 samples.

Results

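The response of the brainstem to an acute inhaled oxidant was measured in sham-operated Wistar Kyoto rats, as gene expression by mRNA sequencing in 4 libraries from rats that breathed ozone and 4 from rats that breathed air. These 8 libraries were chosen by their labels for tissue, operation and exposure, out of 32 libraries in the series. The remaining libraries came from the brainstem of rats whose adrenal glands had both been removed (ADREX), so that they lack adrenal corticosterone and adrenaline, and from the hypothalamus of both kinds of rat, again 4 per exposure. All rats were 13 weeks old and were exposed for 4 hours to ozone at 0.8 ppm or to filtered air, after which tissue was taken at once. Sham rats had kept their adrenal glands. The air group is therefore sham-operated and air-exposed for the same time as the ozone group. Libraries are called by the numbers in their labels, air 1 to 4 and ozone 17 to 20. The labels do not say whether each library came from a separate rat, so the p-values below measure the spread between these libraries.

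The brainstem holds the nuclei that receive airway and cardiovascular afferents and the noradrenergic neurons that drive the stress axis. In rats the adrenal cortex answers stressors with corticosterone, which enters the brain and binds the glucocorticoid receptor Nr3c1, a ligand-activated transcription factor. The receptor raises the transcription of genes such as Fkbp5, Tsc22d3, Per1 and Sgk1 and restrains others, among them inflammatory genes. Glial and endothelial cells of the brain carry this receptor, as neurons do.

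Values are normalized read counts per gene, on a scale on which 1 read was worth between 0.726 and 1.18 in these libraries. The sham brainstem libraries held 6.94 to 11.3 M reads, with the most in ozone 18, and 17876 to 18584 genes had at least 1 read. Region markers of the hindbrain were present: the summed level of 21 hindbrain Hox genes was 833 to 1877, the glycine transporter Slc6a5 of hindbrain inhibitory neurons was at 3549 to 4465, and the hypothalamic peptide genes Avp and Oxt were at 5.74 or lower. Markers of neighbouring or admixed tissue varied between libraries. Alb, the liver and plasma protein albumin, was at 13100 in ozone 18 and at 93.3 to 5247 in the other 7 libraries. The summed level of 16 choroid plexus and ependymal genes was 258 to 2902 in air and 289 to 1699 after ozone, and that of 16 cerebellar genes was 3444 to 6257 in air and 3674 to 9798 after ozone. Haemoglobin beta, Hbb, was at 3691 in ozone 17 and at 669.5 to 1236 elsewhere. A library's spread around the other 3 of its group, as the SD of log2 deviations over genes, was 0.686 for ozone 18 and 0.341 to 0.5 for the other 7. In the same model, ADREX ozone 81 stood farthest from its group at 0.77. Results that rest on either library are given with and without it.

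Of 14408 genes with a mean value of 10 or more over the 16 brainstem libraries, 141 (0.979%) differed between ozone and air in sham rats at a Benjamini-Hochberg adjusted p under 0.05 in limma, which is what a call means below. After ozone 84 genes (0.583%) were higher and 57 (0.396%) were lower. The median change of the called genes was a log2 of 1.03 upward and -0.72 downward, and 45 of the higher genes but 11 of the lower ones changed by a log2 of 1 or more. In 140 of the 141 genes the 4 ozone libraries lay outside the range of the 4 air libraries, against 1035 (7.18%) of all genes tested. The calls were made on the same libraries, so this separation is largely built into them and adds no support. At an unadjusted limma p under 0.05 there were 1110 genes (7.7%). The exception was Tlr2. Leaving out each of the 16 brainstem libraries in turn kept 61 calls in every fit, 43 higher and 18 lower, and the account below leads with these. The count of calls was 90 without air 1, 93 without air 3, 75 without ozone 17, 79 without ozone 19, 73 without ozone 20 and 272 without ADREX ozone 81.

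**Figure D1:**
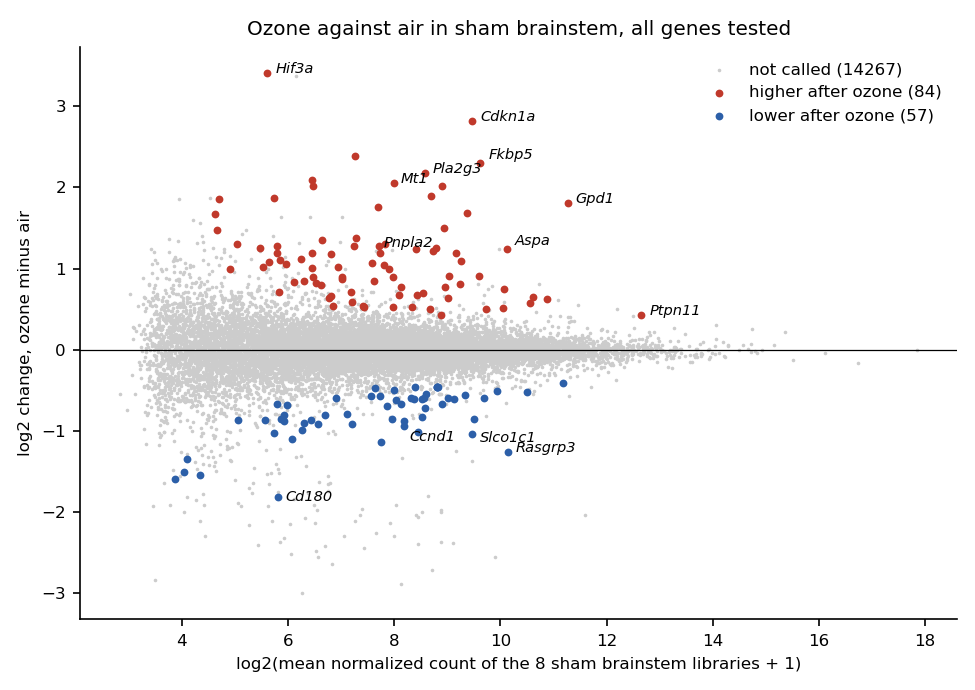
Change after ozone (log2, ozone minus air, vertical axis) against mean level (log2 of the mean normalized count + 1, horizontal axis) for all 14408 genes tested in sham brainstem, with the 84 higher and 57 lower calls in colour. The called increases reach a log2 of 3.41 for Hif3a, whereas Cd180 at -1.81 is the lowest called decrease. The uncalled points below Cd180 include liver transcripts such as Alb, which differed widely between libraries.

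Genes known to be induced by glucocorticoids were the list with the most calls. Of 38 tested members of this list, 13 (34.2%) were higher and none lower, beside 0.583% higher and 0.396% lower of all genes tested. The median log2 change was 0.68 against 0.00 (-0.0026) over all genes tested. Of the 38 changes 35 were positive, beside 49.35% over all genes tested. The same shares over all genes tested are the background of every list count below. The members were chosen with earlier results of these data known, so these counts are descriptions. Fkbp5, a co-chaperone that lowers the affinity of the glucocorticoid receptor for its hormone, stood at 238, 281, 234 and 304 in the air libraries and 1338, 1146, 1410.3 and 1338 in the ozone libraries. Every ozone library was far above every air library, a 4.95-fold difference of means and a log2 change of 2.31 (SE 0.13, limma adjusted p = 6.13e-08). Cdkn1a, the cyclin-dependent kinase inhibitor p21, stood at 164, 143, 225 and 168 in the air libraries and 1229, 1016, 1478 and 1231 in the ozone libraries. Its groups did not overlap, and its log2 change was 2.82 (SE 0.21, limma adjusted p = 4.93e-07). Hif3a, a HIF alpha subunit that restrains the other HIF subunits, was low in air, with 3.23, 19.8, 3.11 and 9.56 in the air libraries and 83.98, 48.6, 109.6 and 104 in the ozone libraries. The log2 change was 3.41 (SE 0.52, limma adjusted p = 0.00249), and the lowest of its ozone values was in ozone 18. Zbtb16, a transcription factor also called PLZF, stood at 31.2, 84.4, 34.2 and 46.8 in the air libraries and 324, 138, 293 and 262 in the ozone libraries, and ozone 18 was again the lowest of the ozone libraries but above all air libraries. Zbtb16 changed by a log2 of 2.39 (SE 0.36, limma adjusted p = 0.00189).

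Gpd1, the cytosolic glycerol-3-phosphate dehydrogenase that links glycolysis to glycerolipid synthesis, stood at 1235, 1156, 1016 and 983 in the air libraries and 3697, 3623, 3995 and 4039.7 in the ozone libraries, with ozone libraries within a narrow band and a log2 change of 1.81 (SE 0.13, limma adjusted p = 3.74e-07). Slc19a3, a thiamine transporter, stood at 19.4, 21.9, 20.7 and 22.9 in the air libraries and 118, 60.9, 77.8 and 74.4 in the ozone libraries. The ozone libraries were all well above the highest air library, and the log2 change was 1.87 (SE 0.31, limma adjusted p = 0.00511). Arrdc2, an arrestin-domain protein, stood at 151, 128, 119 and 105 in the air libraries and 371, 201, 387 and 234 in the ozone libraries, with its lower ozone values in 18 and 20 and a log2 change of 1.19 (SE 0.19, limma adjusted p = 0.00423). Sult1a1, a phenol sulfotransferase, Errfi1, a feedback inhibitor of the EGF receptor, and Mertk, a receptor kinase for the uptake of dying cells, were called with log2 changes of 1.35 (SE 0.27), 0.90 (SE 0.19) and 0.68 (SE 0.14). Their groups did not overlap, at 43.1 to 65.95 in air and 131 to 155 after ozone for Sult1a1, 395 to 647 in air and 815 to 1304 after ozone for Errfi1 and 247 to 279 in air and 373 to 508 after ozone for Mertk. Each of these 3 calls was lost on the omission of any of several libraries. In brackets after each omitted library is the limma adjusted p without it, here and below. The Sult1a1 call was lost without air 1 (0.0809), air 2 (0.0563), air 3 (0.054), ozone 17 (0.0574), ozone 18 (0.052), ozone 19 (0.0758) or ozone 20 (0.0673). Errfi1 was lost without air 2 (0.0906), air 3 (0.0768), ozone 17 (0.0708), ozone 19 (0.114) or ozone 20 (0.0627). Mertk was lost without air 1 (0.0809), air 2 (0.0524), air 3 (0.0846), air 4 (0.0568), ozone 17 (0.0838), ozone 19 (0.116) or ozone 20 (0.0535). The list also holds Plin4, Mt1 and Mt2A, which are described below.

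The same list held genes whose ozone libraries disagreed with one another. Sgk1, a kinase that regulates ion transport, stood at 958, 384, 421 and 514 in the air libraries and 1836, 502, 2155 and 1269 in the ozone libraries. Ozone 18 lay inside the air range and the other 3 ozone libraries above it. The log2 change of 1.24 was not called (limma adjusted p = 0.286), whereas without ozone 18 the limma adjusted p was 0.0363. Per1, a core repressor of the circadian clock, stood at 223, 160.4, 162 and 232 in the air libraries and 352, 215, 392.3 and 339 in the ozone libraries, with the same order of libraries. Its limma adjusted p was 0.153, and 0.0352 without ozone 18. Klf9, a transcription factor induced by glucocorticoid and thyroid hormone, stood at 546, 665, 441 and 532 in the air libraries and 1188, 601, 1149.5 and 977 in the ozone libraries. Here too ozone 18 overlapped the air libraries. The limma adjusted p of Klf9 was 0.0656, against 0.00405 without ozone 18 and 0.0393 without ADREX ozone 81. Pdk4, the kinase that shuts down pyruvate dehydrogenase, stood at 108, 99.99, 65.3 and 70.7 in the air libraries and 239.9, 109.6, 248 and 125 in the ozone libraries, and its groups did not overlap although ozone 18 was only just above air 1. Its limma adjusted p was 0.0828, and 0.0237 without ozone 18.

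Over the 38 tested members, ozone 18 was the lowest of the 4 ozone libraries in 25 and the highest in 8. It was above all 4 air libraries in 23, ozone 17 in 32, ozone 19 in 31 and ozone 20 in 27. The count of called members was 17 without ozone 18, 15 without ADREX ozone 81 and 20 without both, all 20 higher. Among all 84 higher calls, ozone 18 held the weakest ozone value in 42 and the strongest in 14, and among the 57 lower calls the weakest in 35. The median log2 difference from air over the higher calls was 0.97 in ozone 18, 0.98 in ozone 20, 1.04 in ozone 17 and 1.05 in ozone 19. Over the lower calls it was -0.57 in ozone 18 and -0.72 to -0.82 in ozone 17, 19 and 20. Of the 157 genes called when ozone 18 was left out, 152 had moved to the same side in ozone 18 itself and 141 lay beyond every air library there, with a median size of 0.59 on the log2 scale in ozone 18 and 0.93 in the fit. When ozone 17, 19 or 20 was left out instead, all 75, 79 and 73 called genes lay beyond every air library in the omitted one. Ozone 18 is also the deepest library and the one with the most Alb, and the part of either in its smaller changes was not tested.

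**Figure D2:**
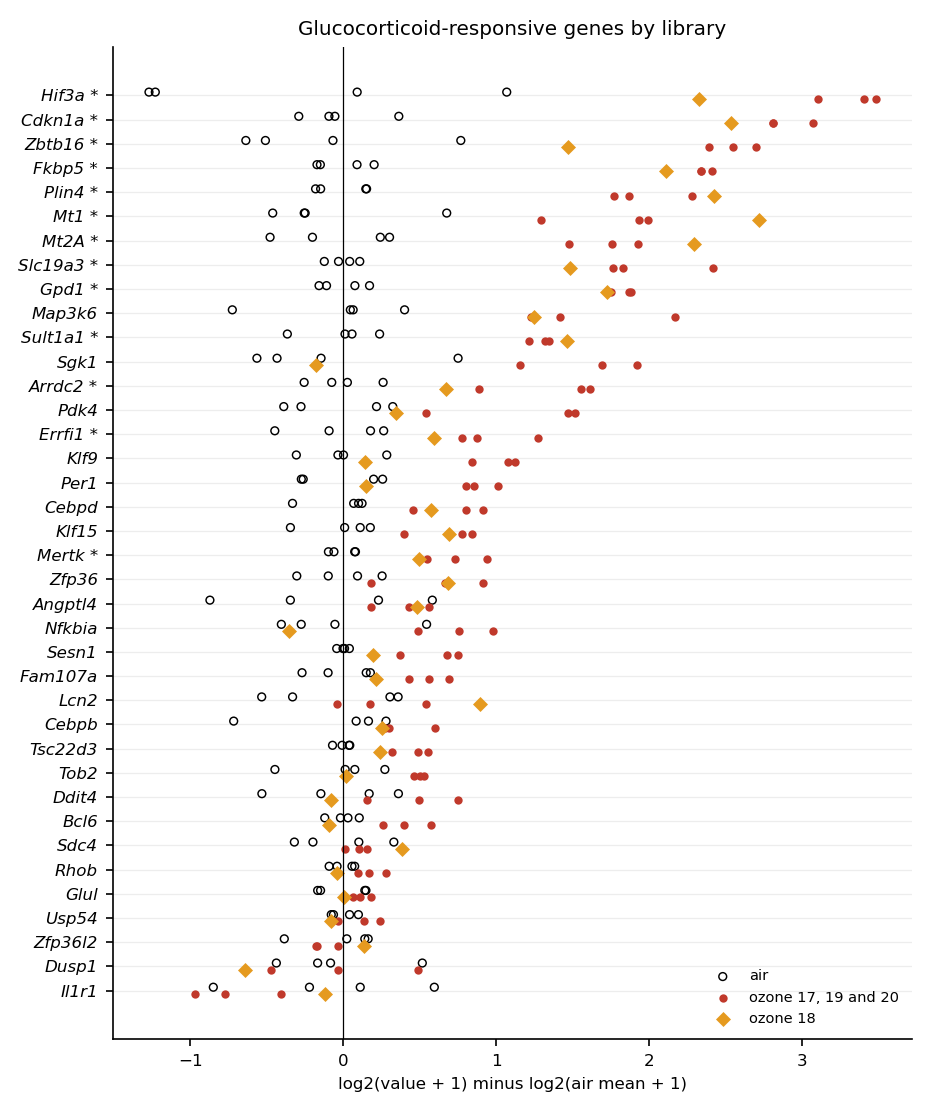
Level of each of the 38 tested glucocorticoid-responsive genes in the 8 sham brainstem libraries, as log2(value + 1) minus log2(air mean + 1). Open circles are the 4 air libraries, red points ozone 17, 19 and 20, orange diamonds ozone 18, and asterisks mark the 13 calls. Ozone 18 was the lowest ozone library in 25 of the 38 genes.

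The glucocorticoid receptor itself and Tsc22d3 depended on a library outside the contrast. Tsc22d3, also called GILZ, stood at 2036, 2126, 2194 and 2201 in the air libraries and 2996, 2529, 3138 and 2668 in the ozone libraries. The groups did not overlap, but the log2 change of 0.40 (SE 0.28) was not called (limma adjusted p = 0.922), in a fit that takes its variance from all 16 brainstem libraries. Without ADREX ozone 81 the limma adjusted p was 0.034. Nr3c1, the glucocorticoid receptor, stood at 994, 1202, 1199 and 1171 in the air libraries and 852, 830.0, 840.5 and 812 in the ozone libraries. Every ozone library was below every air library, with a log2 change of -0.45 (SE 0.16), a limma adjusted p of 0.358, and 0.00878 without ADREX ozone 81. In the fit of the 8 sham brainstem libraries alone both Tsc22d3 and Nr3c1 were called. Nr3c2, the mineralocorticoid receptor, stood at 156 to 195 in air and 119.7 to 165 after ozone, and the groups overlapped (limma adjusted p = 0.533). Hsd11b1, which regenerates active corticosterone inside cells, stood at 139.6 to 167 in air and 149 to 171 after ozone and was not called (limma adjusted p = 0.998). Hsp90aa1, a chaperone of the receptor, stood at 26829 to 34656 in air and 27536 to 30217 after ozone, with a limma adjusted p of 0.998. Of 15 tested genes for the receptor, its co-chaperones and steroid enzymes, Fkbp5 was the 1 call, and the median log2 change was -0.06.

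Metallothioneins, small cysteine-rich proteins that bind zinc and copper and scavenge oxidants, are driven by metal response elements in their promoters and by glucocorticoids. The promoters of both called members are shown because these genes lie on the same strand of chromosome 19 and rose together. The 250 bases before each start are given from RefSeq (GRCr8, minus strand, 5′ to 3′), Mt1 at chr19:10832976-10833225 and Mt2A at chr19:10838709-10838958. Capitals mark matches to the metal response element core, TGCACNC or TGCGCNC on either strand.
Mt1: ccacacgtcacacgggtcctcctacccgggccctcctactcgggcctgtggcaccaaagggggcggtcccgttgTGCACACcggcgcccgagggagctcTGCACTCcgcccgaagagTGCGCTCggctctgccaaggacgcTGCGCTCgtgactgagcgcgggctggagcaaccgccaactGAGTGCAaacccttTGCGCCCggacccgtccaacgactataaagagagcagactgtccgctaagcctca
Mt2A: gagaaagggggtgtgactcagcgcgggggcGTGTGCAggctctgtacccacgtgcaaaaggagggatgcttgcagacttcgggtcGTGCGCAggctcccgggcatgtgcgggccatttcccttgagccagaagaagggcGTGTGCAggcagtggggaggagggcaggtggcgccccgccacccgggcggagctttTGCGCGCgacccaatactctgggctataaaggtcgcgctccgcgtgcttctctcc
The Mt1 window held 6 matches and the Mt2A window 4, whereas 36.7% of 10721 tested genes with such a window held at least 1 match between 250 bases before and 50 after the start.

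Mt1 stood at 70.0, 155, 80.9 and 81.2 in the air libraries and 239, 641, 371 and 388 in the ozone libraries, and Mt2A at 206, 215, 124 and 151 in the air libraries and 485, 855, 664 and 589 in the ozone libraries. All ozone libraries were above all air libraries for both genes, and the order differed from that of most glucocorticoid-responsive genes, since ozone 18 was the highest. The log2 changes were 2.06 (SE 0.32, limma adjusted p = 0.00314) for Mt1 and 1.90 (SE 0.25, limma adjusted p = 0.000757) for Mt2A. Air 2, with the most Alb of the air libraries (5247), also had the highest Mt1 and Mt2A values in air. Air 1, with the least Alb of them (609), had nearly as much Mt2A (206 against 215), and air 3, with Alb at 3684, had the least (124). Without ozone 18 the limma adjusted p was 0.00967 for Mt1 and 0.00273 for Mt2A. Alb was at 609 to 5247 in the air libraries, at 13100 in ozone 18 and at 93.3 to 467 in ozone 17, 19 and 20. The part of admixed liver RNA, which also carries metallothionein transcripts, was not tested. Mt3, the metallothionein of neurons and astrocytes, stood at 1524, 1035, 643 and 1293 in the air libraries and 1203, 1390.1, 1250.3 and 1308 in the ozone libraries and was not called (limma adjusted p = 0.998). Of 16 tested metallothioneins and zinc transporters, 2 were higher and none lower, with a median log2 change of 0.11.

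Single genes with known roles in lipid handling were called higher, while the medians of the lipid lists lay near that of all genes. Pnpla2, the lipase that releases fatty acids from stored triglyceride, stood at 294, 257, 260.3 and 236 in the air libraries and 590.0, 657, 620.2 and 624 in the ozone libraries. The groups were far apart, with a 2.38-fold difference of means and a log2 change of 1.25 (SE 0.09, limma adjusted p = 5.73e-07). The feature LOC100911615 had nearly proportional values, 226, 198, 201 and 182 in the air libraries and 454, 505, 477 and 482 in the ozone libraries, and whether the 2 features share reads is not known. Plin4, a coat protein of lipid droplets, stood at 35.5, 35.4, 28.0 and 28.7 in the air libraries and 119, 176, 159 and 111 in the ozone libraries, without overlap. Its log2 change was 2.09 (SE 0.36, limma adjusted p = 0.00726). Of 13 tested lipid droplet proteins and lipases these 2 listed genes were called, both higher, and the median log2 change was 0.03.

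Pla2g3, a secreted phospholipase A2, stood at 134, 155, 129.7 and 132 in the air libraries and 580.2, 617, 678 and 629 in the ozone libraries. The ozone libraries were within a narrow range far above the air libraries, a 4.55-fold difference of means, and the log2 change was 2.18 (SE 0.19, limma adjusted p = 2.88e-06). It was the 1 call among 15 tested phospholipases A2 and prostanoid genes, whose median was -0.07. Pex11a, which drives the division of peroxisomes, stood at 174, 186, 193 and 203 in the air libraries and 774, 681, 827 and 787 in the ozone libraries, with no overlap and a log2 change of 2.01 (SE 0.14, limma adjusted p = 3.74e-07). No other of the 24 tested peroxisome genes was called, and their median log2 change was -0.02. Ehhadh, a peroxisomal enzyme of fatty acid oxidation, did not overlap at 92.6 to 156 in air and 201 to 457 after ozone, but its limma adjusted p was 0.0625, and 0.00937 without ADREX ozone 81.

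Mfsd2a, the transporter of lysophosphatidylcholine with docosahexaenoic acid at the blood-brain barrier, stood at 339, 432, 302 and 335 in the air libraries and 778, 818, 850.3 and 752 in the ozone libraries. All ozone libraries were above all air libraries, and the log2 change was 1.19 (SE 0.20, limma adjusted p = 0.00555). Vldlr, a receptor for lipoproteins and reelin, stood at 1138 to 1359.8 in air and 1724 to 2136 after ozone, without overlap, a log2 change of 0.65 (SE 0.11, limma adjusted p = 0.00768). Slc25a13, the mitochondrial aspartate-glutamate carrier citrin, stood at 65.3 to 112 in air and 175 to 252 after ozone, a log2 change of 1.28 (SE 0.18, limma adjusted p = 0.00105). Acer2, an alkaline ceramidase, stood at 223 to 280.0 in air and 464 to 766 after ozone with a log2 change of 1.22 (SE 0.23, limma adjusted p = 0.0116), and its adjusted p was 0.0574 without ozone 17. Scap, which escorts the sterol-regulated transcription factors out of the endoplasmic reticulum, was the 1 call among 28 tested cholesterol genes, at 748 to 938 in air and 1221 to 1286 after ozone. Its log2 change was 0.52 (SE 0.11, limma adjusted p = 0.0297), and the call was lost without air 1 (0.0556), air 2 (0.0585), air 3 (0.119), air 4 (0.0782), ozone 17 (0.0838), ozone 18 (0.0733), ozone 19 (0.108) or ozone 20 (0.0863). Among 26 tested genes of fatty acid oxidation and mitochondrial fuel choice, Gpd1 was the 1 call and the median log2 change was 0.06.

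Further large increases came from genes of no listed pathway. Fmo2, a flavin-containing monooxygenase, stood at 26.9, 42.7, 27.0 and 41.1 in the air libraries and 152, 139, 126 and 144 in the ozone libraries. Ozone libraries were about alike and all above air, with a log2 change of 2.02 (SE 0.28, limma adjusted p = 0.00102). Tnfrsf11a, the receptor RANK of the TNF receptor family, stood at 102, 98.9, 78.8 and 95.6 in the air libraries and 287, 319.9, 329 and 347 in the ozone libraries. Its log2 change was 1.76 (SE 0.14, limma adjusted p = 1.1e-06), with no overlap. Gpatch4, a G-patch protein of the nucleolus, stood at 325, 335, 269.7 and 329 in the air libraries and 962, 1013, 1042 and 1019 in the ozone libraries. The means differed 3.21-fold without overlap, a log2 change of 1.68 (SE 0.16, limma adjusted p = 8.59e-06). Pcdh20, a protocadherin, stood at 256, 248, 282 and 224 in the air libraries and 869, 499.9, 883 and 673 in the ozone libraries, and its lowest ozone value was in ozone 18. The log2 change was 1.499 (SE 0.18, limma adjusted p = 0.0002). Rpe65, the retinoid isomerase known from the eye, stood at 67.9 to 95.8 in air and 216 to 227 after ozone, a log2 change of 1.37 (SE 0.20, limma adjusted p = 0.00123).

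Some further higher genes were chosen for description because their calls held in every fit with a library left out. Lonrf3, a ring finger protein, stood at 122 to 142 in air and 269 to 353 after ozone, a log2 change of 1.30 (SE 0.12, limma adjusted p = 6.14e-06). Ptp4a3, the phosphatase PRL-3, stood at 105 to 149.7 in air and 243 to 335 after ozone, a log2 change of 1.28 (SE 0.13, limma adjusted p = 2.21e-05). Lfng, a glycosyltransferase that modifies Notch receptors, stood at 60.2 to 74.0 in air and 141 to 173 after ozone, a log2 change of 1.18 (SE 0.17, limma adjusted p = 0.00123). The endocytic regulators Rin3, Synj2 and Rab31 were higher by log2 changes of 1.004, 0.91 and 0.58, with limma adjusted p values of 0.00715, 0.00726 and 0.0067. The cytoskeletal proteins Svil and Pdlim1 were higher by 0.68 and 0.85 on the log2 scale (limma adjusted p = 0.00726 and 0.00756). Prr5, a subunit of mTOR complex 2, and B3galnt2, which glycosylates dystroglycan, were higher by 0.78 and 0.81 (limma adjusted p = 0.00145 and 0.00564). Znf740, a zinc finger protein, stood at 1457 to 1530.0 in air and 2177 to 2446 after ozone, a log2 change of 0.63 (SE 0.09, limma adjusted p = 0.00123). Further calls were Mdm1 (1.10), Fibin (1.04), Adamtsl4 (1.11), Sh3tc1 (1.02) and Tssc4 (0.85), all log2 changes called in every fit with a library left out.

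Ptpn11, the phosphatase Shp2 that acts downstream of growth factor receptors, stood at 5528, 5509, 5906 and 4997 in the air libraries and 7537, 7035, 7563 and 7442 in the ozone libraries, a small and even increase of 1.35-fold with a log2 change of 0.43 (SE 0.08, limma adjusted p = 0.0142). That call was lost without air 4 (0.0698), ozone 17 (0.0598), ozone 19 (0.0659) or ozone 20 (0.061). Pgf, the placental growth factor, stood at 25.9 to 40.6 in air and 67.6 to 88.8 after ozone, a log2 change of 1.28 (SE 0.24, limma adjusted p = 0.0116), and was lost without air 1 (0.0519) or ozone 19 (0.0602). Usp2, a deubiquitinase under clock control, was the 1 call among 22 tested clock and output genes, at 58.2, 55.2, 36.3 and 61.2 in the air libraries and 117, 103, 130.4 and 129.9 in the ozone libraries. Its groups did not overlap, the log2 change was 1.19 (SE 0.24, limma adjusted p = 0.0156), and the call was lost without air 3 (0.0654), ozone 17 (0.0561), ozone 19 (0.0751) or ozone 20 (0.0687). The median log2 change of the clock genes was 0.11.

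**Figure D3:**
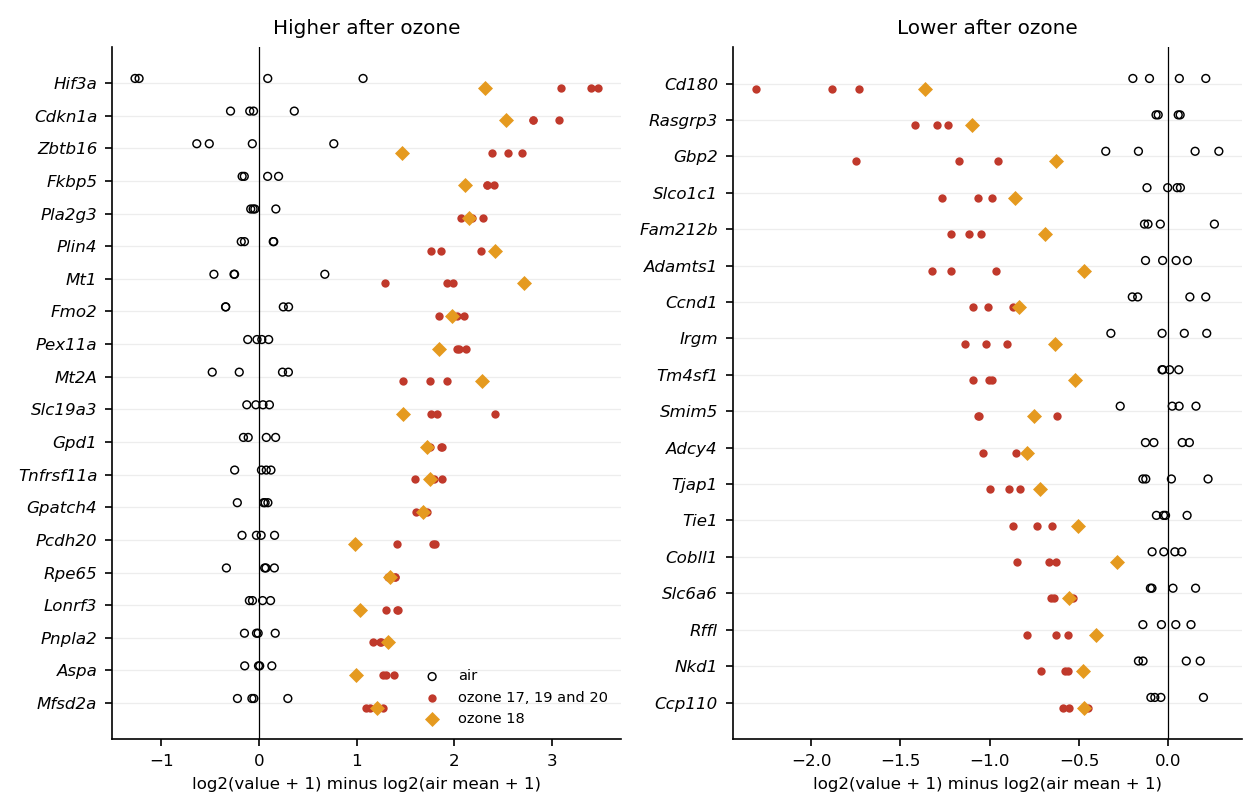
Level of 20 called higher genes (left) and 18 called lower genes (right) in the 8 sham brainstem libraries, as log2(value + 1) minus log2(air mean + 1). Open circles are air libraries, red points ozone 17, 19 and 20, and orange diamonds ozone 18. In all 38 genes the ozone libraries lie outside the air range, and in none of the 18 lower genes is ozone 18 the farthest from air.

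The lower genes had smaller changes, and several are known from the vessel wall. Slco1c1, the thyroxine transporter of brain endothelium and astrocytes, stood at 947, 982, 995 and 874 in the air libraries and 478, 523, 454 and 394 in the ozone libraries. Every ozone library was below every air library, and the log2 change was -1.04 (SE 0.12, limma adjusted p = 0.000105). Tie1, an endothelial receptor tyrosine kinase, stood at 307, 282, 280.0 and 272 in the air libraries and 181, 201, 156 and 171 in the ozone libraries. The groups did not overlap, and the log2 change was -0.69 (SE 0.12, limma adjusted p = 0.00803). Kdr, the main VEGF receptor, stood at 354, 298, 303 and 302 in the air libraries and 184, 271, 128 and 142 in the ozone libraries, with ozone 18 close to the air libraries. The log2 change of Kdr was -0.85 (SE 0.18, limma adjusted p = 0.0257), and the call was lost without air 1 (0.0956), air 2 (0.0615), air 3 (0.0654), air 4 (0.0698), ozone 17 (0.0644), ozone 19 (0.115) or ozone 20 (0.122).

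Of 20 tested endothelial receptors and junction proteins, none were higher and 2 were lower, beside 0.583% and 0.396% of all genes tested. The median log2 change was -0.21, and 5 changes were positive, beside 49.35% over all genes tested. The summed level of the list was 5499 to 6082 in air and 4402 to 5204 after ozone. The members did not move alike: 15 changes were negative, whereas Cldn5, Vwf and Erg changed by 0.03, -0.01 and 0.28. In bulk tissue fewer endothelial cells and less RNA per cell cannot be told apart, and a change limited to some of these genes was not tested. Without ozone 18 and ADREX ozone 81 together, 5 members were called, all lower, among them Eng, the TGF-beta co-receptor endoglin, at 367 to 472 in air and 287 to 314 after ozone. With all libraries the limma adjusted p of Eng was 0.0532, and it was 0.0171 without ADREX ozone 81, 0.0484 without ADREX ozone 83 and 0.0468 without air 2. Outside the list, the endothelial genes Tm4sf1, Adcy4 and Cd93 were lower. They are a selection of calls rather than a full set of endothelial genes, and Adcy4 was named after its values were seen. Among called barrier transporters, Mfsd2a and Slc19a3 were higher and Slco1c1 was lower. Tm4sf1, a tetraspan membrane protein, stood at 99.1, 102, 106 and 99.4 in the air libraries and 50.2, 70.4, 47.1 and 50.8 in the ozone libraries, and ozone 18 was the nearest to air. Its log2 change was -0.90 (SE 0.15, limma adjusted p = 0.00511). Adcy4, an adenylyl cyclase, stood at 38.5 to 45.9 in air and 20.1 to 24.1 after ozone, a log2 change of -0.86 (SE 0.15, limma adjusted p = 0.00768). Cd93, a receptor of endothelial and myeloid cells, stood at 143 to 222 in air and 82.6 to 123 after ozone, a log2 change of -0.91 (SE 0.17, limma adjusted p = 0.0116), lost without air 3 (0.0516), air 4 (0.0515) or ozone 20 (0.061). Adamts1, a secreted metalloprotease, stood at 91.6, 97.9, 108 and 103 in the air libraries and 42.5, 71.8, 39.4 and 50.8 in the ozone libraries, without overlap and with a log2 change of -0.99 (SE 0.18, limma adjusted p = 0.00803). It was the 1 call among 26 tested mural cell, fibroblast and matrix genes, whose median was -0.06.

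Transporters of the barrier moved in both directions. Of 18 tested, Slc19a3 and Mfsd2a were higher and Slco1c1 was lower, with a median log2 change of -0.03. Slco1c1 was also the 1 call among 11 tested genes of thyroid hormone transport, conversion and receptors, with a median of 0.09. Slc6a6, the taurine transporter, stood at 425, 423, 504 and 462 in the air libraries and 291, 308, 287 and 313 in the ozone libraries, outside the barrier list. Its ozone libraries lay below all air libraries, and the log2 change was -0.59 (SE 0.11, limma adjusted p = 0.00961).

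Receptors of microglia and interferon-responsive genes were called downward, in small numbers. Cd180, a Toll-like receptor relative on B cells and myeloid cells, had the largest decrease of the 57 lower calls. It stood at 74.3, 98.9, 89.2 and 79.3 in the air libraries and 25.1, 32.6, 16.4 and 22.4 in the ozone libraries, a 3.54-fold lower mean after ozone with a log2 change of -1.81 (SE 0.26, limma adjusted p = 0.00145). Tlr2, a receptor for bacterial lipoproteins, stood at 85.1, 98.9, 133 and 120.4 in the air libraries and 46.9, 91.4, 50.4 and 54.3 in the ozone libraries, and ozone 18 overlapped the air libraries. Its log2 change of -0.87 (SE 0.20, limma adjusted p = 0.0475) was the least stable call described here: it was kept without ozone 18, air 1 or ADREX ozone 81 and lost without each of the other 13 brainstem libraries (limma adjusted p = 0.0557 to 0.177). Cx3cr1, the fractalkine receptor of microglia, did not overlap at 253 to 416 in air and 147 to 226 after ozone, with a limma adjusted p of 0.0532, 0.011 without ADREX ozone 81 and 0.0237 without ozone 18. Of 25 tested microglia and Toll-like receptor genes 2 were lower and none higher, beside 0.396% and 0.583% of all genes tested. Their median log2 change was -0.26, with 5 positive changes, beside 49.35% over all genes tested. The summed level of the list was 3015 to 3219 in air and 2466 to 2886 after ozone.

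Gbp2, an interferon-induced GTPase, stood at 100.2, 80.2, 70.5 and 109.9 in the air libraries and 26.2, 58.0, 39.4 and 46.0 in the ozone libraries. The groups did not overlap and the log2 change was -1.10 (SE 0.20, limma adjusted p = 0.00961). Gbp4, its relative, was near the detection limit at 15.6 to 25.9 in air and 2.36 to 11.6 after ozone, with a log2 change of -1.59 (SE 0.35, limma adjusted p = 0.0328), and was lost without air 1 (0.121), air 2 (0.0629), air 3 (0.0545), air 4 (0.119), ozone 17 (0.0606), ozone 19 (0.114) or ozone 20 (0.0932). Irgm, an immunity-related GTPase, stood at 98.5 to 143 in air and 55.5 to 79.1 after ozone, a log2 change of -0.91 (SE 0.17, limma adjusted p = 0.00961). For the interferon-responsive and antigen-presentation list, with 30 tested, the counts were 2 lower and 0 higher, beside 0.396% and 0.583% of all genes tested. The list's median log2 change was -0.31, and 3 changes were positive, beside 49.35% over all genes tested. In the fit of the 8 sham brainstem libraries alone the limma adjusted p was 0.0602 for Gbp2 and 0.141 for Gbp4. Csf1, a growth factor for microglia, stood at 498 to 533 in air and 349 to 408 after ozone, a log2 change of -0.45 (SE 0.08, limma adjusted p = 0.0114), and its adjusted p was 0.0599 without ozone 20.

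Rasgrp3, an exchange factor that activates Ras and Rap1, had the smallest p of all lower genes. It stood at 1523, 1510.2, 1646 and 1658 in the air libraries and 646, 739, 673 and 593 in the ozone libraries. The groups were far apart, a 2.39-fold difference with a log2 change of -1.26 (SE 0.09, limma adjusted p = 3.74e-07). It was the 1 call among 20 tested Ras and Rap exchange factors and related genes, whose median was -0.05. Ccnd1, cyclin D1, which drives entry into the cell cycle and is opposed by Cdkn1a, stood at 340.4, 333, 417 and 444 in the air libraries and 189.8, 215, 209 and 179 in the ozone libraries. Ccnd1 changed by a log2 of -0.94 (SE 0.11, limma adjusted p = 0.000107), without overlap. Cdkn1a and Ccnd1 were the 2 calls among 24 tested cell cycle and p53 genes, whose median log2 change was 0.03.

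Other lower genes were called in every fit with a library left out. Tjap1, a tight junction associated protein, stood at 849 to 1093 in air and 469 to 568 after ozone, a log2 change of -0.85 (SE 0.13, limma adjusted p = 0.00189). Fam212b stood at 426 to 559 in air and 201 to 289 after ozone, a log2 change of -1.01 (SE 0.15, limma adjusted p = 0.00161). Nkd1, an inhibitor of Wnt signalling, stood at 226 to 288 in air and 155 to 182 after ozone, a log2 change of -0.57 (SE 0.10, limma adjusted p = 0.00838). Rffl, a ubiquitin ligase of endosomes, stood at 898 to 1083 in air and 574 to 748 after ozone, a log2 change of -0.59 (SE 0.10, limma adjusted p = 0.00726). Ccp110, a protein that caps centrioles, stood at 1075 to 1318 in air and 765 to 842 after ozone, a log2 change of -0.51 (SE 0.09, limma adjusted p = 0.00726). Cobll1 and Smim5 changed by -0.61 and -0.87 on the log2 scale (limma adjusted p = 0.00961 and 0.00671).

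Oligodendrocytes, which make the myelin of this tissue, were represented by single calls. Aspa, the aspartoacylase with which oligodendrocytes cleave N-acetylaspartate, stood at 593, 660.3, 719.8 and 655 in the air libraries and 1717, 1310.2, 1619.6 and 1587 in the ozone libraries. All ozone libraries were above all air libraries, with a log2 change of 1.24 (SE 0.17, limma adjusted p = 0.00109). Cryab, a small heat-shock protein of oligodendrocytes, did not overlap at 985 to 1431 in air and 1669 to 2481 after ozone (limma adjusted p = 0.0656, and 0.00269 without ADREX ozone 81). Opalin, a myelin membrane protein, was at 2994 ± 249.9 in air and 2006 ± 92.7 after ozone (SD, n = 4 each), with a limma adjusted p of 0.0828 and 0.000529 without ADREX ozone 81. Of 22 tested oligodendrocyte and myelin genes Aspa was the 1 call, and the median log2 change was -0.08. In 8 of the 22 the groups did not overlap, beside 1035 (7.18%) of all 14408 genes tested. Olig2, a transcription factor of the oligodendrocyte lineage and the 1 call among 11 precursor genes (median -0.01), stood at 675, 588, 609.9 and 589 in the air libraries and 396, 333, 492 and 418 in the ozone libraries. Its log2 change was -0.60 (SE 0.11, limma adjusted p = 0.0116), lost without air 1 (0.0554) or ozone 17 (0.0517). Car2, a carbonic anhydrase of oligodendrocytes, stood at 2548 to 2848 in air and 1888 to 2077 after ozone, a log2 change of -0.41 (SE 0.08, limma adjusted p = 0.0136), lost without air 1 (0.0645) or ozone 20 (0.0631).

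Among 22 tested HIF subunits and targets, Hif3a was higher and P4ha1, a collagen prolyl hydroxylase, was lower at 328 to 366 in air and 194 to 227 after ozone (log2 change -0.66 (SE 0.15), limma adjusted p = 0.0475), and the median was -0.03. The P4ha1 call was lost without ADREX air 65 (0.0609), ADREX air 66 (0.07), ADREX ozone 84 (0.0624), air 1 (0.14), air 2 (0.1), air 3 (0.117), air 4 (0.11), ozone 17 (0.163), ozone 18 (0.0731), ozone 19 (0.133) or ozone 20 (0.107). Errfi1 was the 1 call among 17 tested MAP kinase phosphatases and feedback inhibitors, with a median of -0.11.

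Neuronal and stress-response lists held no call. The median log2 change was 0.02 for 21 neuron genes, 0.01 for 18 astrocyte genes, -0.10 for 17 catecholamine and adrenergic receptor genes, -0.07 for 25 neuropeptide and receptor genes and -0.09 for 16 serotonergic and cholinergic genes. It was -0.01 for 23 NRF2 and antioxidant genes, -0.18 for 16 inflammatory and acute-phase genes, -0.05 for 18 heat-shock genes, -0.06 for 23 unfolded-protein-response genes and 0.13 for 16 genes of gp130, Stat3 and C/EBP. At an unadjusted limma p under 0.05 there were none among neuron, NRF2, neuropeptide or serotonergic and cholinergic genes, 2 astrocyte, 2 catecholamine, 1 inflammatory, 1 heat-shock, 1 unfolded-protein-response and 2 gp130, Stat3 or C/EBP genes. The rate-limiting enzyme of catecholamine synthesis, Th, stood at 119.8 to 154 in air and 126 to 182 after ozone (limma adjusted p = 0.955). Dbh, which makes noradrenaline, stood at 146 to 224 in air and 152 to 207 after ozone (limma adjusted p = 0.998). Crh, the corticotropin-releasing peptide, stood at 39.2 to 60.2 in air and 40.6 to 52.3 after ozone (limma adjusted p = 0.998). Hmox1, the inducible haem oxygenase that oxidants raise in many cells, stood at 47.8 to 58.3 in air and 37.1 to 58.8 after ozone (limma adjusted p = 0.995). These 4 genes overlapped between groups.

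Among 24 tested immediate early genes, which report recent neuronal or cellular activation, none were called by limma (3 at an unadjusted p under 0.05), 8 changes were positive, and the median log2 change was -0.18. Fos stood at 88.3, 62.5, 48.7 and 68.8 in the air libraries and 42.5, 44.3, 51.5 and 29.5 in the ozone libraries, and the ozone libraries lay low but overlapped the air range (limma adjusted p = 0.187). Jun did not overlap at 407 to 618 in air and 263 to 363 after ozone, with a log2 change of -0.61, a limma adjusted p of 0.0714, and 0.025 without ADREX ozone 81. Nr4a1 stood at 98.9 to 226 in air and 109.8 to 156 after ozone and overlapped (limma adjusted p = 0.998).

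The lists of neighbouring or admixed tissue also held no call and no gene at an unadjusted limma p under 0.05. The median log2 change was -1.65 for 21 liver transcripts, 0.25 for 15 cerebellar genes, -0.31 for 13 hindbrain Hox genes, 0.36 for 5 red blood cell transcripts, 0.00 (-0.0049) for 11 choroid plexus and ependymal genes, 0.02 for 2 pituitary genes and -0.11 for 3 hypothalamic and forebrain genes. Positive changes numbered 0 of 21 for liver, 15 of 15 for cerebellar and 2 of 13 for Hox genes, beside 49.35% over all genes tested. They numbered 4 of 5 for red blood cell and 4 of 11 for choroid plexus and ependymal genes. Of 23 ion and water transport regulators none was called by limma (1 at an unadjusted p under 0.05), with a median of -0.01. The summed liver list was 15861 to 26761 in air, 51806 in ozone 18 and 12266 at the lowest after ozone. The other 3 ozone libraries were all below the air range. Its member Tf, transferrin, stood at 13417 to 14759 in air and 11745 to 16725 after ozone. Tf made up most of the sum in ozone 17, 19 and 20, where Alb was at 93.3 to 467. The sum therefore does not measure liver RNA alone. Hoxa5 was listed at 0 in ozone 17 and stood at 141 to 209 in the other 7 libraries. The part of the liver transcripts in the genes above was not tested beyond the fits without ozone 18.

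**Figure D4:**
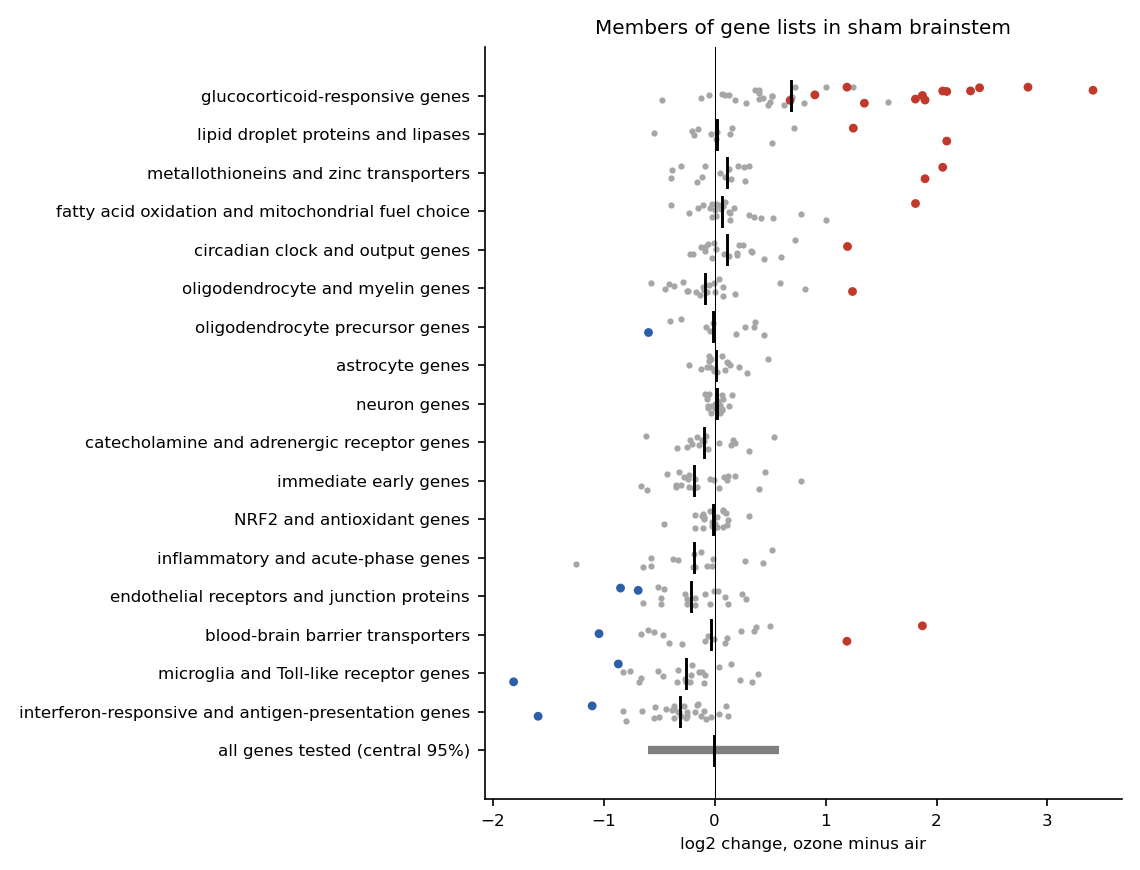
Log2 change (ozone minus air) of the tested members of 17 gene lists in sham brainstem, with grey points for genes not called, red for higher and blue for lower calls, and a black bar for the list's median. The lowest row gives the median and the central 95% of all 14408 genes. The glucocorticoid-responsive list has 13 red points and a median of 0.68, and the endothelial, microglia and interferon lists have medians of -0.21, -0.26 and -0.31 and blue points only. List members were chosen with earlier results of these data known.

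Whether the response needed the adrenal glands was asked with the difference between the sham and the ADREX responses in the same 16-library model. No gene was called for ozone in ADREX brainstem by limma, with 851 at an unadjusted p under 0.05, and edgeR also called none. The difference itself was called for 29 genes (0.201%), of which 28 were also called in sham rats, 22 higher and 6 lower. The difference contains the sham contrast from the same libraries, so this overlap is largely built in. For the rest of the 141 sham calls the difference was not called, so a need for the adrenal glands was not shown for them. In 17 of the 29 genes the call held in all 16 fits with a library left out. Fkbp5 was at 225 ± 32.9 in air and 208 ± 30.3 after ozone in ADREX rats (mean ± SD, n = 4 each, here and below), a log2 change of -0.12 (SE 0.13), and the difference between the responses was 2.42 (SE 0.19, limma adjusted p = 6.34e-06). Cdkn1a was at 111 ± 17.4 in air and 97.6 ± 29.2 after ozone in ADREX rats, and the responses differed by a log2 of 3.06 (SE 0.29, limma adjusted p = 3.12e-05). Gpd1 was at 641 ± 147 in air and 611 ± 32.8 after ozone in ADREX rats, and the responses differed by 1.86 (SE 0.18, limma adjusted p = 3.12e-05). Pnpla2 was at 213 ± 13.4 in air and 184 ± 10.95 after ozone and differed by 1.46 (SE 0.13, limma adjusted p = 2.73e-05).

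Rasgrp3, the clearest of the lower genes, was at 1710.5 ± 141 in air and 1687 ± 38.1 after ozone in ADREX rats and differed by -1.24 (SE 0.12, limma adjusted p = 3.7e-05). Pex11a, Tnfrsf11a, Ptp4a3, Gpatch4, Pcdh20, Fmo2, Pla2g3, Mdm1, Lonrf3, Slc19a3, Aspa and LOC100911615 completed the 17 genes, with differences between the responses of 1.08 to 2.75 on the log2 scale. The difference was also called for Hif3a, Lfng, Fibin, Prr5, Ccnd1, Rffl, Cd180, Adamts1, Pak7, a kinase of the p21-activated family, Ston1, LOC501110 and Rn50_14_0474.1, of which the last was not called in sham rats, but in these 12 each call was lost in 6 or more of the 16 fits with a library left out. For Zbtb16, Mt1, Mt2A, Plin4, Arrdc2 and Slco1c1 the difference was not called, with limma adjusted p values of 0.0569, 0.157, 0.082, 0.656, 0.0976 and 0.147. The ADREX log2 changes of these 6 genes were -0.11 (SE 0.36), 0.17 (SE 0.32), 0.23 (SE 0.25), 0.66 (SE 0.36), -0.04 (SE 0.19) and -0.34 (SE 0.12).

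**Figure D5:**
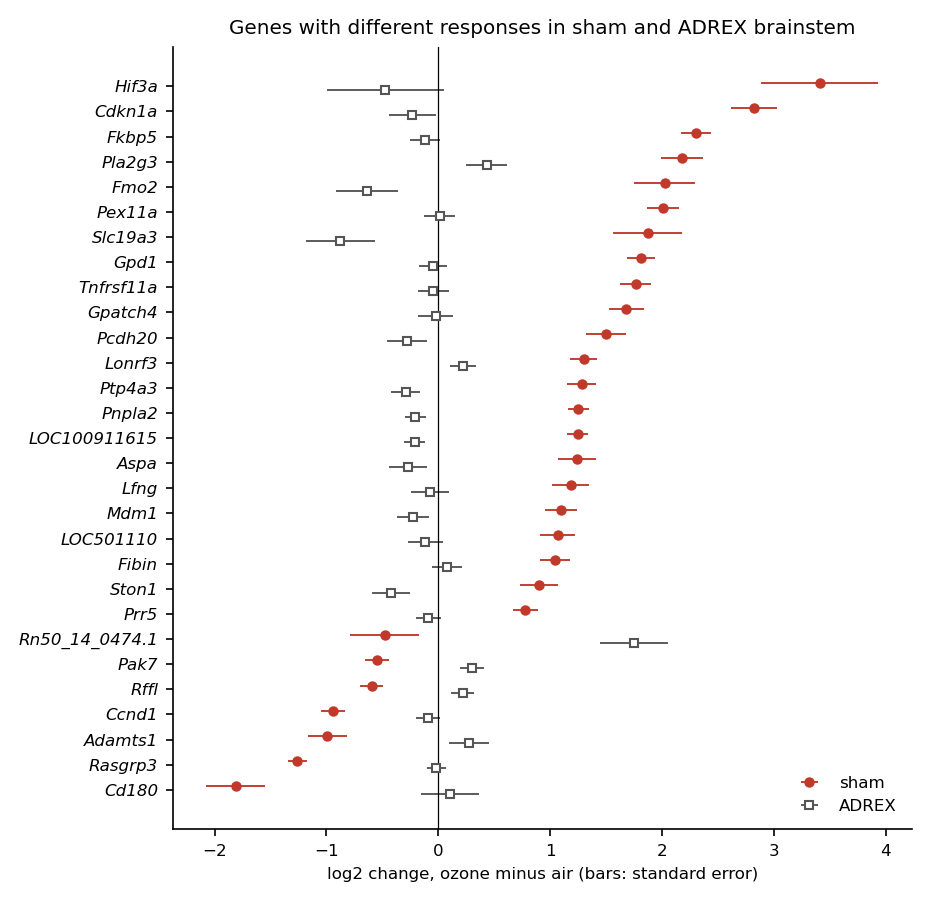
Log2 change after ozone with its standard error in sham (red circles) and ADREX (open squares) brainstem for the 29 genes whose responses differed. The sham changes run from -1.81 for Cd180 to 3.41 for Hif3a, and the ADREX change of Fkbp5 is -0.12 (SE 0.13).

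The sham response of the hypothalamus was set beside that of the brainstem in a fit of all 32 libraries. No gene of 14533 was called for a difference between the tissues by limma, with 416 at an unadjusted p under 0.05, and edgeR called none. Of the 84 higher and 57 lower brainstem calls, 12 and 9 had an unadjusted limma p under 0.05 for this difference, beside 416 of all 14533 genes. These calls were picked on brainstem libraries that also enter the tissue difference, so a larger share among them can follow from that choice. Fkbp5 changed by 2.23 (SE 0.14) in the hypothalamus on the log2 scale, beside 2.31 (SE 0.13) in the brainstem. Pla2g3 changed by 3.60 (SE 0.25), beside 2.18 (SE 0.19), and Pex11a by 1.35 (SE 0.12), beside 2.01 (SE 0.14). For Csf1 and Slc6a6 the hypothalamic log2 values were 0.03 (SE 0.09) and -0.05 (SE 0.12), beside -0.45 (SE 0.08) and -0.59 (SE 0.11) in the brainstem. For Pla2g3, Pex11a, Csf1 and Slc6a6 the limma adjusted p of the tissue difference was 0.983, so none passed.

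Promoter windows from RefSeq (GRCr8, 250 bases before to 50 after the start) were matched by symbol for 66 of the 84 higher genes, 41 of the 57 lower genes and 10721 of 14408 tested genes. The glucocorticoid half-site AGAACA, on either strand, lay in 10 of 66 windows of higher genes (15.2%), 4 of 41 of lower genes (9.76%) and 12% of all. The metal response element core lay in 33 of 66 (50%), 14 of 41 (34.1%) and 36.7%. A pair of half-sites GNACA and TGTNC spaced by 3 bases lay in 0.261% of all windows, in 1 of the higher genes (Eva1c) and in none of the lower ones. The E-box CACGTG lay in 12.1% of higher, 0% of lower and 9.27% of all windows. These are descriptions of letters in short windows near the start and carry no test.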

How the data were processed

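Messenger RNA was sequenced from 32 libraries in 8 groups of 4. The deposited table gives, for 22587 genes, a normalized count signal per library that the authors made with Partek and DESeq2 on build rn6, per the submitters' processing notes. No source used here names the aligner, the annotation or the use of strand, so genes that overlap or have near-identical copies are uncertain. All values were whole multiples of 1 step per library within a tolerance of 0.001, so reads were recovered for 100% of values. Counting error is larger in the shallower libraries.

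From these values, log2(value + 1) was fitted with limma 3.58.1 (R 4.3.3, with a trend of variance on level, Benjamini-Hochberg adjustment at 0.05) in the 16 brainstem libraries for genes with a mean of 10 or more, so a fold change understates that of low genes. Contrasts were ozone against air in sham rats, the same in ADREX rats, their difference, and the difference between tissues in 32 libraries. The fit was tested on simulated data. The alternatives were edgeR 4.0.16 and DESeq2 1.42.0 on recovered reads, other pseudocounts, filters and scalings, sample weights, subsets of libraries and each library left out. The fit without both libraries that stand apart was chosen after seeing the data.

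Genes were named by a rule on size, p, level and list membership, with preference, added after values were seen, for calls that held in all 16 fits with a library left out. Named outside the rule, after their values were seen, were Pgf, Ehhadh, Acer2, Lfng, Adamtsl4, Mdm1, Fibin, Sh3tc1, Rin3, Pdk4, Synj2, Tssc4, Pdlim1, B3galnt2, Klf9, Prr5, Svil, Mt3, Csf1, Eng, Nkd1, Slc6a6, Cobll1, Cx3cr1, Adcy4, Ston1 and LOC501110. Not all genes the rule gives are printed. The members and the 40 gene lists were chosen with earlier results of these data known, so a list's counts are descriptions.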

Additional observations from a re-analysis of the deposited data

Results flagged for a closer look

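In 12 of 206 checks of a group of 4 libraries, 1 library stood apart from the other 3, where chance would give about 1 in 20 groups. The count is thus near that given by chance, and the cases below are descriptions. Ozone 18 stood above the other ozone libraries for summed liver transcripts (51810 against 12270 to 14840), Tlr2 (91.4 against 46.9 to 54.3), Tm4sf1 (70.4 against 47.1 to 50.8) and Pdlim1 (112 against 95.6 to 96.4). Ozone 17 stood above them for summed red blood cell transcripts (5305 against 1006 to 1301). Air 1 stood above the other air libraries for Kdr (354 against 298 to 303) and Car2 (2848 against 2548 to 2575), and below them for Nr3c1 (994 against 1171 to 1202) and Prr5 (181 against 211 to 215). Air 2 stood above them for Pla2g3 (155 against 130 to 134) and Mt1 (155 against 70.0 to 81.2), and air 3 below them for Gpatch4 (269.7 against 325 to 335).

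The responses of sham and ADREX brainstem differed in 29 genes, all named above, by limma's test of the difference at a Benjamini-Hochberg adjusted p under 0.05. The difference, sham minus ADREX on the log2 scale, was 3.88 for Hif3a, 3.06 for Cdkn1a, 2.75 for Slc19a3, 2.66 for Fmo2, 2.42 for Fkbp5 and 2.002 for Pex11a. It was 1.86 for Gpd1, 1.81 for Tnfrsf11a, 1.78 for Pcdh20, 1.75 for Pla2g3, 1.70 for Gpatch4, 1.57 for Ptp4a3 and 1.51 for Aspa. It was 1.46 for Pnpla2 and for LOC100911615, 1.33 for Mdm1, 1.32 for Ston1, 1.26 for Lfng, 1.19 for LOC501110, 1.08 for Lonrf3, 0.97 for Fibin and 0.87 for Prr5. Among genes lower after ozone in sham rats it was -1.92 for Cd180, -1.27 for Adamts1, -1.24 for Rasgrp3, -0.85 for Ccnd1 and for Pak7, and -0.81 for Rffl. It was -2.23 (SE 0.43, limma adjusted p = 0.0434) for the feature Rn50_14_0474.1, which was not called in sham rats.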

How the results depend on the processing

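The 141 calls became 496 with sample weights, 237 with DESeq2, 134 with edgeR and 293 without both libraries that stand apart (ozone 18 and ADREX ozone 81), and 73 to 272 with 1 library left out. All 141 were among the calls with DESeq2 and with sample weights, 140 without both libraries and 129 with edgeR. The fit of the 8 sham brainstem libraries alone called 176 genes, with 119 of the 141 kept, 22 lost and 57 gained. Tsc22d3, Nr3c1, Eng, Ehhadh, Cryab and Opalin were among those gained. The 29 differences between the sham and ADREX responses became 58 without both libraries and 18 to 47 with 1 library left out. Pseudocounts of 0.5 or 5 and median-of-ratios rescaling moved none of 98 named genes across the threshold or in direction. Dbh, at 0.04 on the log2 scale, changed sign to -0.018 without both libraries and ranged from -0.0587 to 0.145 with 1 library left out. Its negative values were -0.01 without air 3, -0.0587 without air 4 and -0.02 without ozone 18. Hsp90aa1, at -0.04, ranged from -0.0871 to 0.036, the positive value without air 2. Neither gene was called. The cause of these changes was not tested.

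No paired analysis was possible because the groups compared within the brainstem share no replicate numbers. Between the tissues, sham libraries share numbers. With the replicate number as a block, 0 of 14536 genes were called for the tissue difference, with 691 at an unadjusted limma p under 0.05, and without the block in the same 16 sham libraries 1 was called. Same-numbered deviations correlated by 0.32, 0.26, -0.20 and -0.02 for air 1 to 4 and -0.16, 0.61, 0.11 and 0.32 for ozone 17 to 20. Only number 2 correlated best with its own number, so the numbers were not taken to pair the samples.

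With 4 libraries a group and 6.94 to 11.3 M reads, low genes such as Gbp4 and Hif3a were measured on few reads. Recovered reads are not known to be independent molecules. Liver, blood and cerebellar transcripts varied between libraries within each group. Between the groups, the changes of the liver list were all negative and those of the cerebellar list all positive, though none was called. The part of these transcripts in small changes was not tested.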
